A study of Mus musculus with 16 samples.

Results

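The genes described here are 10 genes of the ATF4 stress response and of serine and one-carbon metabolism: *Atf4*, *Ddit3*, *Trib3*, *Chac1*, *Asns*, *Slc7a11*, *Phgdh*, *Psat1*, *Shmt2* and *Mthfd2*. They were taken by gene symbol from a table of 18990 genes, in which all 10 were found, and all 10 were among the 14028 genes tested. The study asked which chromatin-associated proteins act early in the reprogramming of fibroblasts to induced pluripotent stem cells. Its RNA sequencing covers 16 bulk libraries in 8 groups: nt control, si*Wdr5*, si*Brca1* and si*Bard1* cells, each collected at 2 time points, day 3 and day 6. Every group has 2 libraries, labelled replicate 1 and replicate 2. The study calls its replicates independent, and a figure legend traces its RNA sequencing replicates to independent experiments. The labels do not tie them to separate cultures, so that p-values measure the spread between these libraries only.

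All groups were primary mouse embryonic fibroblasts of wild-type BL6 embryos at passage 2. All received lentiviruses for rtTA and for tet-STEMCCA, the doxycycline-inducible cassette of Oct4, Sox2, Klf4 and c-Myc (OSKM), at a multiplicity of infection of 1. All were kept in doxycycline at 2 μg/mL and LIF, with the GSK3 inhibitor chiron at 3 μM, the TGF-beta receptor inhibitor Alk5i at 0.25 μM and ascorbic acid at 50 μg/mL. The groups differed in the pooled siRNAs, at 40 nM, and in the day of collection. The nt control received non-targeting siRNAs, and the others received siRNAs against *Wdr5* (a core subunit of H3K4 methyltransferase complexes), *Brca1* or *Bard1* (partner subunits of 1 ubiquitin ligase with roles in DNA repair). The cultures are mixtures of fibroblasts and cells at different stages of reprogramming.

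ATF4 is a transcription factor whose mRNA is translated when eIF2alpha is phosphorylated by kinases that sense amino acid shortage, unfolded proteins in the endoplasmic reticulum, double-stranded RNA or heme deficiency. Its targets include amino acid transporters, amino acid synthesis enzymes and other stress factors, and ATF4 protein is controlled largely through translation, so that its mRNA level does not report its activity. Among these targets are the enzymes that make serine from glycolytic 3-phosphoglycerate and the mitochondrial folate enzymes that pass on its one-carbon unit for nucleotide synthesis, a supply that dividing cells draw on.

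The promoters of 4 members held the letters of the C/EBP-ATF response element, the motif bound by ATF4 with a C/EBP partner, and their stretches are shown because these members include the ones with the widest range across libraries.
Chac1: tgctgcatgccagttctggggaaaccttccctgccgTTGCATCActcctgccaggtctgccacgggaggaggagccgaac
Slc7a11: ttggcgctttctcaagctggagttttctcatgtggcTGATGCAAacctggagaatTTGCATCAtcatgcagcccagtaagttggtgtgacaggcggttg
Asns: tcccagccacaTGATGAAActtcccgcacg
Trib3: tcagcagcagattagctcaggtTTACATCA
Capitals mark the match in these RefSeq sequences of GRCm38.p6, each written 5′ to 3′ along the strand of its gene. The stretches are chr2:119351013-119351092 on the plus strand for *Chac1*, chr3:50443617-50443715 on the minus strand for *Slc7a11*, chr6:7693214-7693243 on the minus strand for *Asns* and chr2:152344039-152344068 on the minus strand for *Trib3*. The searched window ran from 250 bases before to 50 bases after the start of each gene, on both strands. A minus strand match of TGATGCAA reads TTGCATCA, and that of *Trib3*, of TGATGTAA, reads TTACATCA. The letters TGATGCAA stood in 294 of 32851 promoters (0.895%), and in 2 of the 11 promoters of the members, where *Psat1* has 2. *Slc7a11* held them on each strand, and 2 of all promoters held 2 or more such matches. The looser TGATGNAA, which includes all TGATGCAA matches, stood in 1304 promoters (3.97%) and in 4 of the 11, adding *Asns* and *Trib3*. By the RefSeq starts of this table, the match of *Asns* began 23 bases before the start and that of *Trib3* lay after it. No match was present in these windows of the other 6 members. In GENCODE vM21, on the same assembly (mm10), the protein-coding genes of these 4 members span chr2:119351229-119354381 (*Chac1*), chr3:49892526-50443614 (*Slc7a11*), chr6:7675169-7693254 (*Asns*) and chr2:152337422-152344032 (*Trib3*). The annotations place the starts differently, and by these GENCODE spans the match of *Asns* lies inside the gene and that of *Trib3* before its start. The other members are the protein-coding genes at chr15:80255184-80257541 (*Atf4*) and chr10:127290774-127296288 (*Ddit3*) on the plus strand, and at chr3:98313170-98339990 (*Phgdh*), chr19:15904678-15947337 (*Psat1*), chr10:127517123-127522444 (*Shmt2*) and chr6:83305691-83325908 (*Mthfd2*) on the minus strand.

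The libraries held 11169738 to 26832534 reads, and the reads of a member ranged from 21 (*Trib3*) to 7277 (*Psat1*) in a library. Levels are given as CPM (reads scaled to a common library size), which are 2 to the power of the deposited log2 values and include the small prior count of the authors' log transformation. At day 3 each targeted gene was lower than in both nt libraries: *Wdr5* at 50.6 and 55.3 against 132 and 130.5 CPM, *Brca1* at 37.5 and 19.4 against 82.4 and 78.0 CPM, and *Bard1* at 18.01 and 20.8 against 30.5 and 29.1 CPM. *Bard1* was lower still in si*Brca1* cells (14.4 and 9.07 CPM) and si*Wdr5* cells (13.9 and 15.3 CPM). At day 6 *Brca1* in si*Brca1* cells (35.9 and 40.1 CPM) and *Bard1* in si*Bard1* cells (12.6 and 14.5 CPM) lay within or overlapped the range of the nt control (33.2 and 42.6, and 11.3 and 14.01 CPM), while *Wdr5* in si*Wdr5* cells (85.5 and 72.4 CPM) was below it (91.8 and 98.1 CPM). The 5 fibroblast markers were present in every library and summed to 2192 CPM to 10165 CPM. The muscle markers *Myod1*, *Myog* and *Ckm*, the macrophage marker *Ptprc* and the neural marker *Gfap* were not among the genes of the table. The other markers of these lists were in it. Over the libraries they summed to 16.9 to 277 CPM (2 muscle), 7.05 to 22.7 CPM (4 macrophage) and 30.9 to 91.8 CPM (4 neural). The 5 endothelial and 5 keratinocyte markers were all in the table, at sums of 15.9 to 59.9 and 94.1 to 170 CPM. In these bulk libraries, fewer cells of a type and less RNA per cell cannot be told apart.

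The members differed widely in level in the nt control of day 3. Per kilobase of exon, nt day 3 cells held most mRNA of *Psat1* (phosphoserine aminotransferase), with a level of 99.7 ± 2.96 CPM per kb (SD, n = 2). Next came *Atf4* itself at 75.7 ± 2.82, *Shmt2* (mitochondrial serine hydroxymethyltransferase) at 63.9 ± 1.03 and *Phgdh* (phosphoglycerate dehydrogenase, the entry enzyme of serine synthesis) at 56.7 ± 1.18 CPM per kb. *Asns* (asparagine synthetase) reached 46.2 ± 0.531 and *Mthfd2* (a mitochondrial methylenetetrahydrofolate dehydrogenase) 21.1 ± 0.0814 CPM per kb. *Slc7a11*, the cystine importer subunit xCT, stood at 5.81 ± 0.782 CPM per kb. *Ddit3*, which encodes the stress factor CHOP, stood at 5.04 ± 0.425 CPM per kb, and the libraries of these neighbours overlapped. *Chac1* (a glutathione-degrading enzyme) and *Trib3* (a pseudokinase induced by ATF4 and CHOP) were lowest at 2.95 ± 0.181 and 1.38 ± 0.197 CPM per kb. Exon lengths are those of the GENCODE vM21 annotation, which need not be the authors' own. The place of *Slc7a11* depends on its long exons (13.9 kb). Without division by length it stood at 88.7 and 73.2 CPM, near *Mthfd2* at 73.9 and 73.5 CPM. The order also changed with time, as nt day 6 cells held 20.3 CPM per kb of *Slc7a11* and 12.3 of *Mthfd2*.

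**Figure D1:**
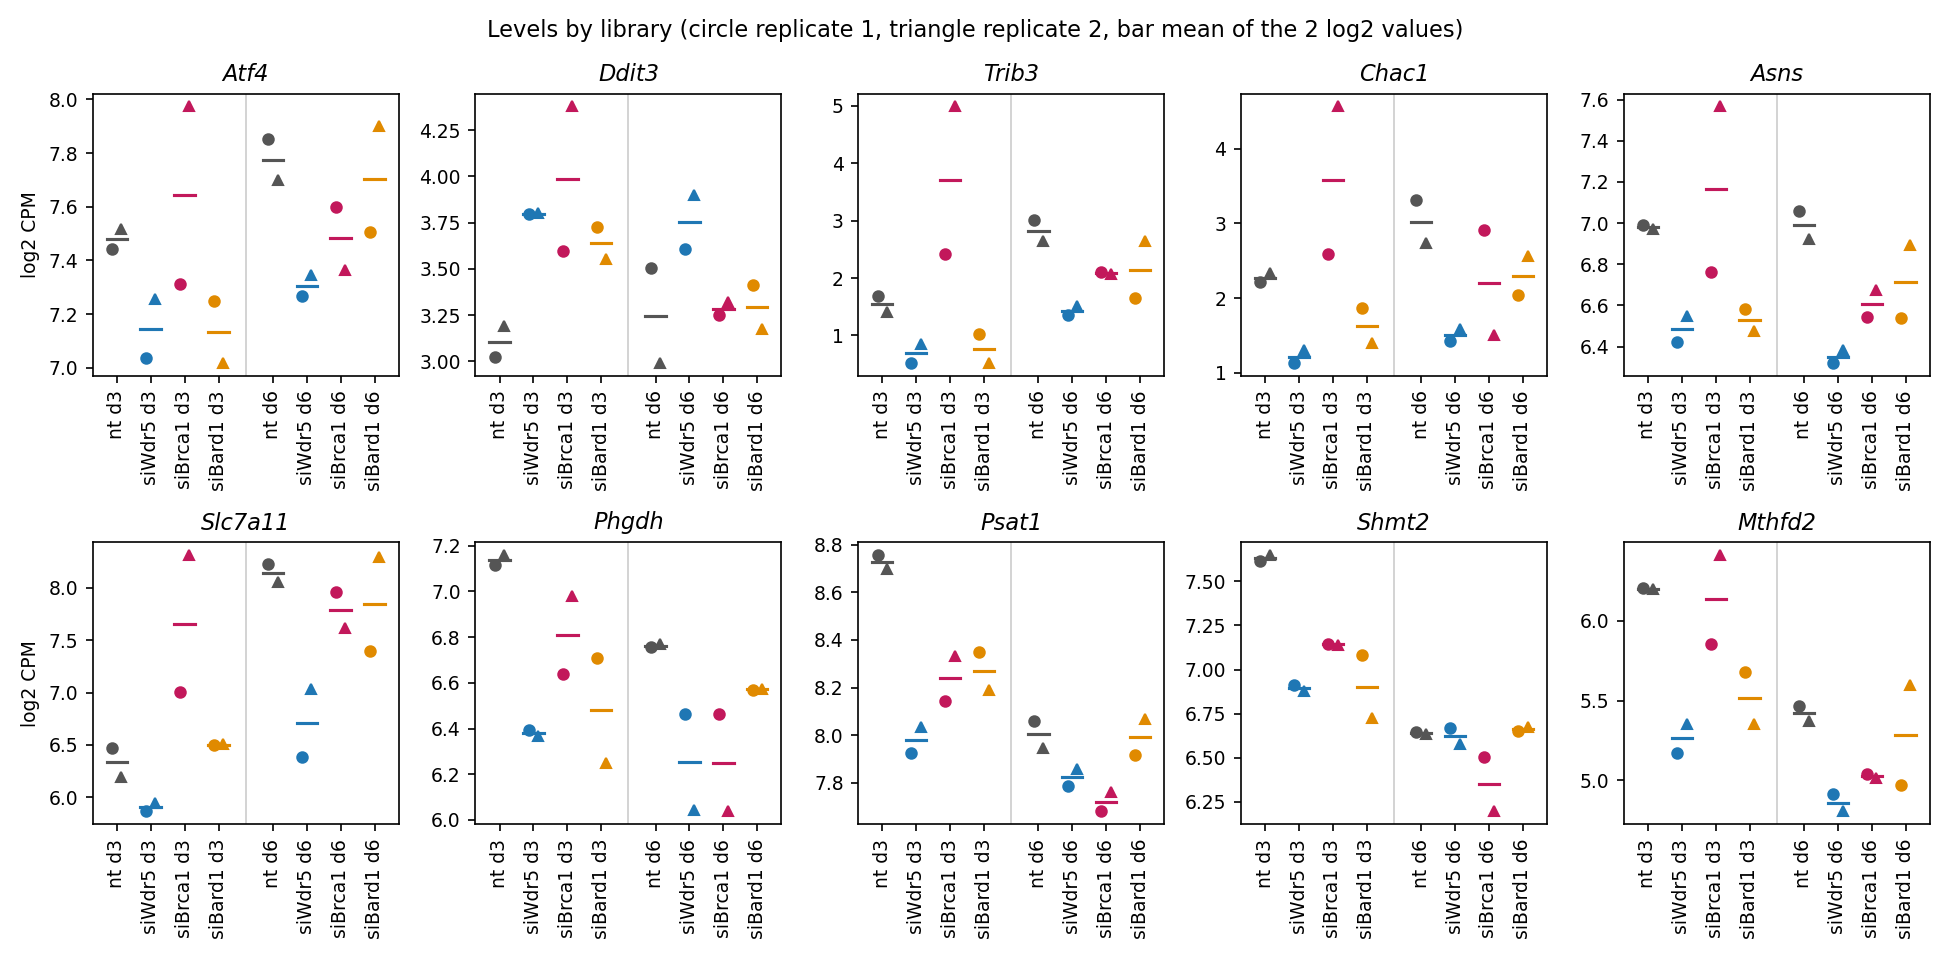
Level of each member in each of the 16 libraries (y axis, deposited log2 CPM; x axis, the 8 groups, with a line between days), as a circle for replicate 1, a triangle for replicate 2 and a bar for the mean. At day 3, replicate 2 of si*Brca1* is the highest library of that day for *Atf4*, *Ddit3*, *Trib3*, *Chac1*, *Asns*, *Slc7a11* and *Mthfd2*, and *Psat1* and *Shmt2* are highest in the nt control of day 3.

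In the nt control 3 of the 4 serine and folate enzymes (*Shmt2*, *Psat1* and *Mthfd2*) fell from day 3 to day 6, and the cystine importer *Slc7a11* rose. *Shmt2* stood at 196 and 201 CPM at day 3 and at 100.2 and 99.5 CPM at day 6. *Psat1* went from 433 and 415 to 267 and 247 CPM. *Mthfd2* went from 73.9 and 73.5 to 44.2 and 41.5 CPM. The days did not overlap for any of these 3 genes. In limma with Benjamini-Hochberg adjustment, *Shmt2* changed by -0.99 ± 0.12 on the log2 scale (SE, adjusted p = 1.62e-05), *Psat1* by -0.72 ± 0.11 (adjusted p = 7.61e-05) and *Mthfd2* by -0.78 ± 0.19 (adjusted p = 0.00330). *Slc7a11* stood at 88.7 and 73.2 CPM at day 3 and at 300 and 266 CPM at day 6, a log2 change of 1.81 ± 0.33 (adjusted p = 0.000389). Thus 1 of 10 members rose and 3 fell, shares close to those over all genes tested, of which 19% rose and 27.1% fell. *Trib3* was higher in both libraries, going from 3.24 and 2.65 to 8.05 and 6.28 CPM, with a log2 change of 1.28 ± 0.54 that did not pass (adjusted p = 0.0635). *Phgdh* went from 139 and 143 to 108 and 109 CPM (log2 change -0.38, adjusted p = 0.0828). *Atf4*, *Ddit3*, *Asns* and *Chac1* had log2 changes between 0.01 and 0.75 that did not pass. *Myc*, whose cassette and endogenous reads are counted together, stood at 628 and 647 CPM at day 3 and at 305 and 391 CPM at day 6. Between the same days the summed fibroblast markers went from 4906 to 5855 CPM at day 3 to 2192 to 2269 CPM at day 6, the 5 proliferation markers from 1132 to 1153 CPM to 661 to 703 CPM, and the 5 pluripotency markers from 7.92 to 9.98 CPM to 122 to 135 CPM. The part of these shifts in the members' changes was not tested.

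At day 3 the serine synthesis and mitochondrial folate enzymes were lower than in the nt control after knockdown of *Wdr5*, and less uniformly after knockdown of *Brca1* or *Bard1*. *Psat1*, at 433 and 415 CPM in the control, stood at 243 and 262 CPM in si*Wdr5*, 283 and 322 CPM in si*Brca1* and 326 and 292 CPM in si*Bard1* cells. No knockdown library reached the control for this gene. Its log2 fold change was -0.75 ± 0.11 in si*Wdr5* (adjusted p = 0.000213), -0.49 ± 0.11 in si*Brca1* (adjusted p = 0.00221) and -0.46 ± 0.11 in si*Bard1* cells (adjusted p = 0.0140). *Shmt2*, which splits serine into glycine and a one-carbon unit, stood at 196 and 201 CPM in the control, 120.2 and 118 CPM in si*Wdr5*, 142 and 141 CPM in si*Brca1* and 135 and 106 CPM in si*Bard1* cells. It too was below the control in every knockdown library. *Shmt2* fell by 0.74 on the log2 scale in si*Wdr5* (SE 0.12, adjusted p = 0.000359), by 0.49 in si*Brca1* (SE 0.12, adjusted p = 0.00326) and by 0.73 in si*Bard1* cells (SE 0.12, adjusted p = 0.00148). These calls of *Psat1* and *Shmt2* in si*Wdr5* and si*Brca1* cells, and that of *Shmt2* in si*Bard1* cells, passed in all 13 alternative fits. These include each library of the compared groups left out in turn.

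*Phgdh* and *Mthfd2* differed more between the knockdowns. *Phgdh*, at 139 and 143 CPM in the control, stood at 84.0 and 82.6 CPM in si*Wdr5*, 99.8 and 126 CPM in si*Brca1* and 105 and 76.1 CPM in si*Bard1* cells. It fell by 0.76 on the log2 scale in si*Wdr5* (SE 0.14, adjusted p = 0.00140) and by 0.66 in si*Bard1* cells (SE 0.14, adjusted p = 0.00966), and its change of -0.33 in si*Brca1* cells did not pass (adjusted p = 0.0763). *Mthfd2*, which oxidizes the folate-bound unit in mitochondria, stood at 73.9 and 73.5 CPM in the control, 36.1 and 40.9 CPM in si*Wdr5*, 57.9 and 85.3 CPM in si*Brca1* and 51.2 and 40.8 CPM in si*Bard1* cells. The si*Brca1* libraries lay on either side of the control. *Mthfd2* fell by 0.94 on the log2 scale in si*Wdr5* (SE 0.16, adjusted p = 0.000755) and by 0.69 in si*Bard1* cells (SE 0.16, adjusted p = 0.0139), and its change in si*Brca1* cells was -0.07 (adjusted p = 0.756). In si*Wdr5* cells both falls passed in all 13 alternatives. In si*Bard1* cells the calls of *Psat1*, *Phgdh* and *Mthfd2* each were lost when either nt library or replicate 2 of si*Bard1* was left out, with values of -0.38 to -0.69.

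In si*Brca1* cells at day 3 the 4 members that rose were *Slc7a11*, *Trib3*, *Chac1* and *Ddit3*. *Slc7a11* stood at 88.7 and 73.2 CPM in the nt control and at 128 and 319 CPM in si*Brca1* cells. *Trib3* stood at 3.24 and 2.65 CPM in the control and at 5.37 and 31.9 CPM in si*Brca1* cells. *Chac1* stood at 4.62 and 5.04 CPM in the control and at 6.04 and 23.7 CPM in si*Brca1* cells. For all 3 genes both knockdown libraries lay above the control, replicate 2 by far the more. The log2 fold changes were 1.33 ± 0.27 for *Slc7a11* (adjusted p = 0.00129), 2.16 ± 0.55 for *Trib3* (adjusted p = 0.00536) and 1.31 ± 0.43 for *Chac1* (adjusted p = 0.0235). *Ddit3* rose by 0.88 ± 0.21 (adjusted p = 0.00374), from 8.12 and 9.15 to 12.1 and 20.8 CPM. *Atf4* (174 and 183 CPM in the control, 159 and 251 CPM in si*Brca1*) and *Asns* (127 and 125 CPM in the control, 108 and 189.7 CPM in si*Brca1*) had 1 knockdown library below and 1 above the control. In all, 4 members rose and 2 fell in si*Brca1* cells, where 25.4% of the genes tested rose and 21.8% fell. The log2 fold change was above 1 for 3 members, against 7.12% of all genes tested.

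The size of these rises rested on 1 library. Between the si*Brca1* libraries of day 3, *Trib3* had 71 reads in replicate 1 and 451 in replicate 2. *Chac1* had 80 and 335 reads, and *Ddit3* had 162 and 294 reads. *Atf4* had 2151 and 3572 reads. These libraries held 14198918 and 14977162 reads in all. Of the 10 members 9 were higher in replicate 2, with a median difference of 0.72 on the log2 scale, while the median over all genes tested was 0.02. *Shmt2* was the exception, at 142 and 141 CPM. Members moved together between replicates in some other groups too, by less. In si*Bard1* day 6 cells 9 were higher in replicate 2 (median 0.38, against -0.01 over all genes tested). In si*Bard1* day 3 and nt day 6 cells 1 was (medians -0.28 and -0.15, against -0.08 and -0.02). For si*Wdr5* 8 were at day 3 and 7 at day 6 (medians 0.12 and 0.07, against 0.07 and 0.09). Only 5 were in nt day 3 and 3 in si*Brca1* day 6 cells (medians 0.01 and -0.14, against 0.001 and 0.01). Between the si*Brca1* libraries of day 3 the difference exceeded 1 for 3 members (*Trib3*, *Chac1* and *Slc7a11*), against 3.17% of the genes tested. No other group had more than 1 member past that limit. Replicate 2 was also the library with less *Brca1* (274 reads, against 506 in replicate 1), and its proliferation markers summed to 358 CPM against 664 CPM, and these values were not tested as a source of the difference. Without replicate 2, *Trib3* kept a rise of 0.88 (adjusted p = 0.0454), *Ddit3* of 0.49 (adjusted p = 0.0378) and *Slc7a11* of 0.67 (adjusted p = 0.000108). *Chac1* then had 0.32 (adjusted p = 0.404) and the changes of *Atf4* and *Asns* turned to -0.17 and -0.22. *Phgdh* and *Mthfd2* then passed as lower, at -0.50 and -0.35 (adjusted p = 0.00479 and 0.0462). Without replicate 1 the rises were 3.44 for *Trib3*, 2.30 for *Chac1* and 1.98 for *Slc7a11*. The lone library left in the group was in each case assumed to vary like the other groups.

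**Figure D2:**
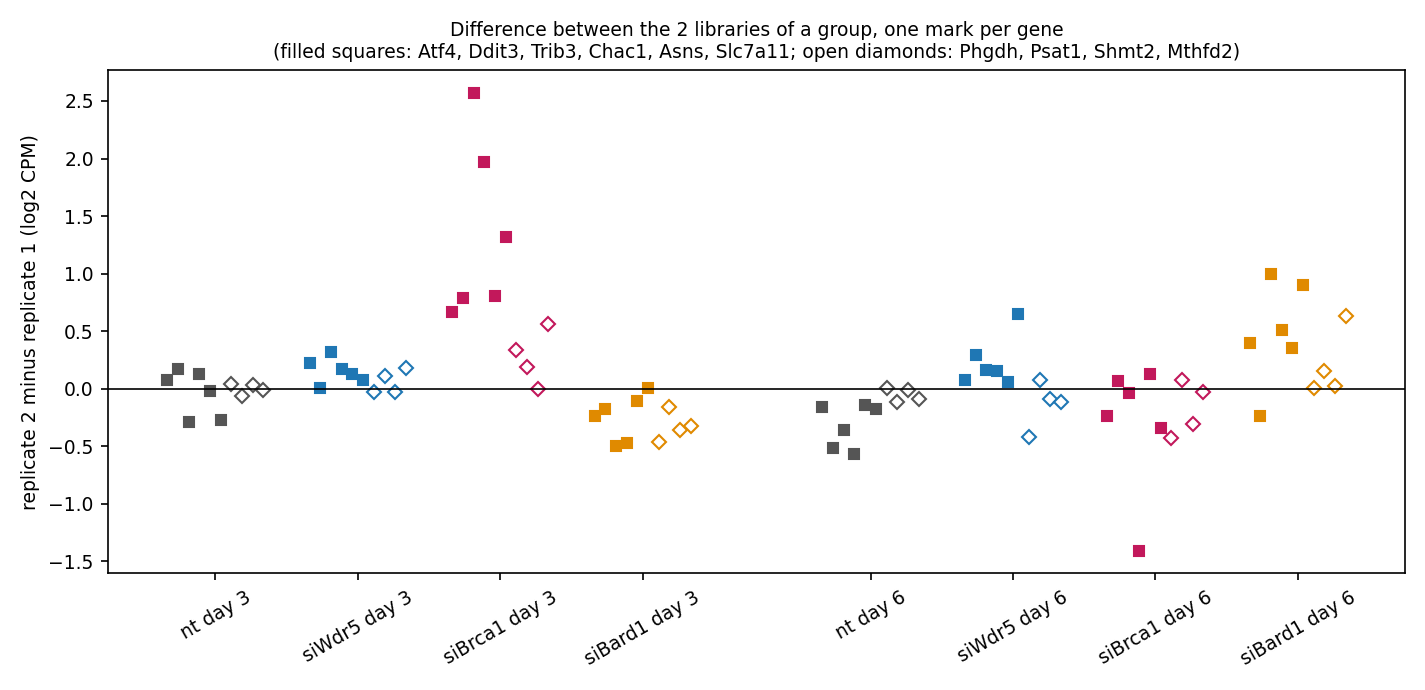
Difference between replicate 2 and replicate 1 of each group (y axis, log2 CPM), with 1 mark per member in each of the 8 groups (x axis). Filled squares mark *Atf4*, *Ddit3*, *Trib3*, *Chac1*, *Asns* and *Slc7a11*. Open diamonds mark the 4 serine and folate enzymes *Phgdh*, *Psat1*, *Shmt2* and *Mthfd2*, which are also among the targets of ATF4. In si*Brca1* day 3 cells *Trib3* differed by 2.57 and *Chac1* by 1.97, and the open diamonds of that group lie between -0.01 and 0.56.

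*Ddit3* moved the other way from the rest of the members in si*Wdr5* cells at day 3. It stood at 8.12 and 9.15 CPM in the nt control, 13.88 and 13.94 CPM in si*Wdr5* and 13.2 and 11.7 CPM in si*Bard1* cells, with no overlap with the control. The log2 fold change was 0.69 ± 0.21 in si*Wdr5* cells (adjusted p = 0.0212) and 0.53 ± 0.21 in si*Bard1* cells, which did not pass (adjusted p = 0.103). The si*Wdr5* call was lost when any 1 of the 4 libraries was left out, with values of 0.60 to 0.78 (adjusted p = 0.0545 to 0.132). By GENCODE vM21, 105 bases (6.13%) of the exons of *Ddit3* are shared with a second gene model of the same name on the same strand, whose reads could be assigned to either. *Asns* fell in si*Wdr5* cells, from 127 and 125 to 85.7 and 93.4 CPM, by 0.50 on the log2 scale (SE 0.18, adjusted p = 0.0480), and this call was likewise lost without any 1 of the 4 libraries (adjusted p = 0.131 to 0.242). *Atf4* (131 and 153 CPM), *Trib3* (1.44 and 1.80 CPM), *Chac1* (2.19 and 2.46 CPM) and *Slc7a11* (58.2 and 61.4 CPM) lay below both control libraries in si*Wdr5* cells. Their log2 fold changes of -0.33, -0.86, -1.06 and -0.43 did not pass in this fit, whose spread is shared by all 8 libraries of the day. With only the si*Wdr5* and nt libraries in the fit all 10 members passed, 9 as lower and 1 as higher. Over all genes tested 6849 then passed, against 4913 in the main fit.

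Counted over the members, si*Wdr5* cells at day 3 had 1 member higher and 5 lower, where 18.3% of the genes tested were higher and 16.8% lower. The median log2 fold change of the 10 was -0.74, against -0.04 over all genes tested. si*Bard1* cells had 0 members higher and 4 lower in limma, where 8.67% of the genes tested were higher and 5.87% lower (4392 genes in either direction at an unadjusted p under 0.05), with medians of -0.55 and -0.02. Without overlap, 9 members lay below and 1 above the control in si*Wdr5*, and 8 below and 2 above in si*Bard1* cells, where 39.6% and 33.7% of the genes tested lay below and 34.9% and 30.2% above. The 3 knockdowns share their 2 nt libraries. The same libraries moved in other markers: of 5 proliferation markers, 5 were lower in si*Wdr5*, 5 in si*Brca1* and 1 in si*Bard1* cells, and their sum ranged from 1132 to 1153 CPM in the nt control, 677 to 719 CPM in si*Wdr5*, 358 to 664 CPM in si*Brca1* and 915 to 974 CPM in si*Bard1* cells. The summed fibroblast markers were 4906 to 5855 CPM in the nt control and 10011 to 10165, 8000 to 9038 and 6648 to 7733 CPM in the knockdowns in that order. The 5 pluripotency markers summed to 7.92 to 9.98 CPM in the nt control and 1.88 to 2.55, 3.42 to 4.22 and 4.01 to 4.54 CPM in the knockdowns. The reprogramming factors were lower as well, with *Myc* at 412 and 408, 351 and 264, and 400.2 and 277 CPM. The 2 muscle markers found in the table were higher in all 3 knockdowns. The part of these shifts in the members' changes was not tested.

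**Figure D3:**
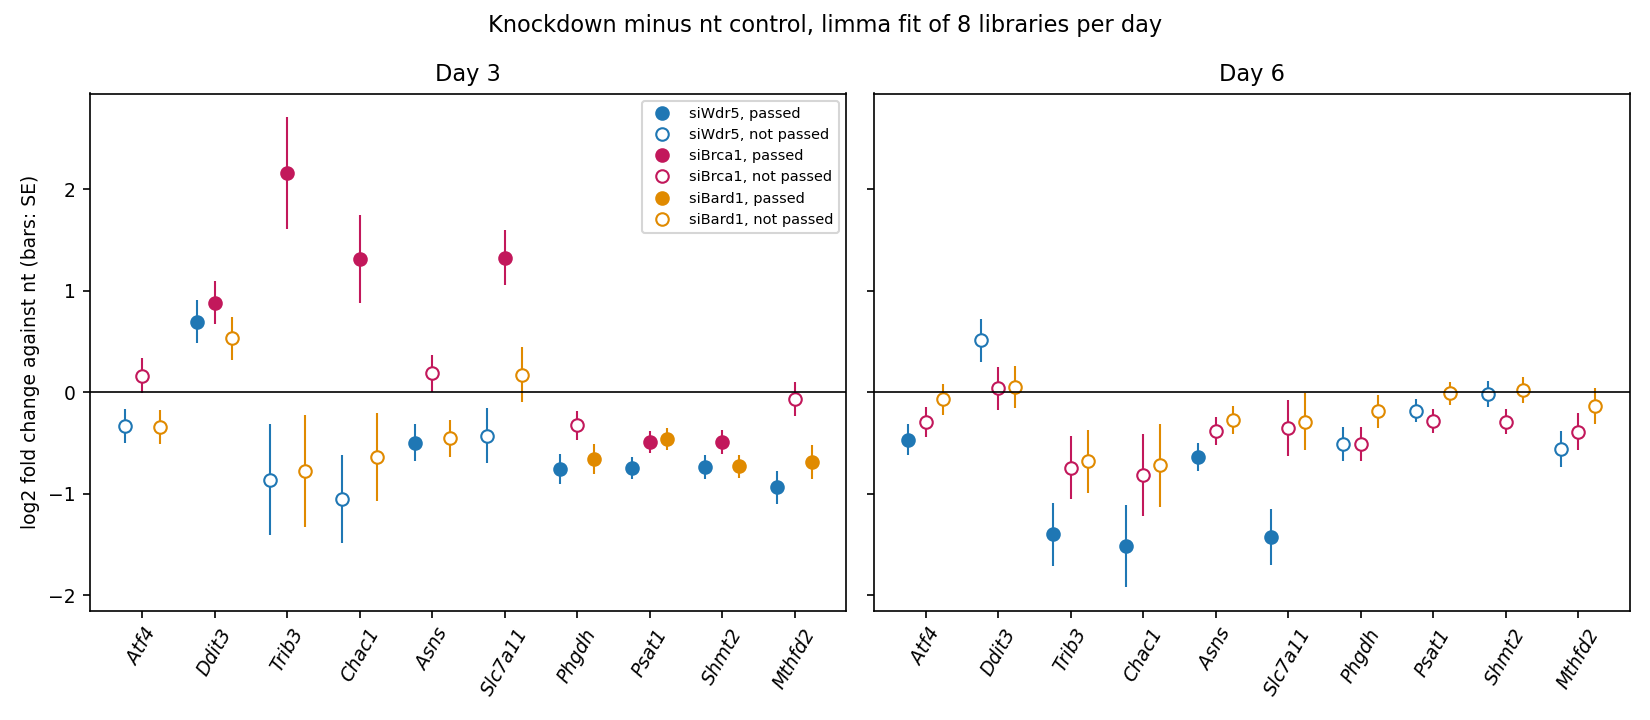
Log2 fold change of each knockdown against the nt control of its day (y axis, mean difference in log2 CPM with standard error bars) for the 10 members (x axis), with filled points for adjusted p < 0.05. At day 3 the 4 enzymes on the right are at or below 0 in all 3 knockdowns and *Trib3*, *Chac1* and *Slc7a11* stand above 1 in si*Brca1* cells, and at day 6 filled points occur for si*Wdr5* only.

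The knockdowns were also set against each other at day 3. Against si*Brca1*, si*Wdr5* cells were lower for 5 members (*Asns*, *Trib3*, *Chac1*, *Mthfd2* and *Slc7a11*), where 10.2% of the genes tested were lower. The difference of *Trib3* was -3.02 ± 0.55 (adjusted p = 0.00273), and that of *Mthfd2* was -0.87 ± 0.16 (adjusted p = 0.00318). Without si*Brca1* replicate 2 the count was 4, and the differences were -1.74 for *Trib3*, -1.38 for *Chac1* (-2.37 with both libraries), -1.10 for *Slc7a11* (-1.76) and -0.59 for *Mthfd2*, which passed, and -0.28 for *Asns* (-0.68), which did not (adjusted p = 0.165). Without si*Brca1* replicate 1 the count was 9 and *Asns* was at -1.08. Without si*Wdr5* replicate 1 only *Slc7a11* passed among the members, and fewer genes passed over all genes tested. Against si*Bard1*, si*Brca1* cells were higher for 6 members (*Atf4*, *Asns*, *Trib3*, *Chac1*, *Mthfd2* and *Slc7a11*), where 13.1% of the genes tested were higher. *Atf4* differed by 0.51 ± 0.17 (adjusted p = 0.0457) and *Slc7a11* by 1.16 ± 0.27 (adjusted p = 0.0110). Without si*Brca1* replicate 2 the count was 3, with *Slc7a11* at 0.50 (adjusted p = 0.0124), *Trib3* at 1.66 (2.94 with both libraries) and *Chac1* at 0.96 (1.95), and *Atf4*, at 0.18 (adjusted p = 0.399), *Asns* and *Mthfd2* did not pass. Without si*Brca1* replicate 1 *Slc7a11* was at 1.81 and *Atf4* at 0.84. No member passed without si*Bard1* replicate 2, where the calls over all genes tested were lost as well. The count was 1 with no filter on low values and 0 with no trend in the variance. In these 2 fits 1520 and 67 genes passed in either direction, against 3008 in the main fit. Between si*Wdr5* and si*Bard1* cells 0 members passed in limma in either direction, where 8.63% of the genes tested did (3637 at an unadjusted p under 0.05). *Psat1* was lowest in unadjusted p among the enzymes there, at -0.29 ± 0.11 (adjusted p = 0.115).

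At day 6 *Slc7a11*, *Trib3*, *Chac1*, *Asns* and *Atf4* fell in si*Wdr5* cells. *Slc7a11* stood at 300 and 266 CPM in the nt control and at 83.7 and 131 CPM in si*Wdr5* cells. *Trib3* stood at 8.05 and 6.28 CPM in the control and at 2.55 and 2.85 CPM in si*Wdr5* cells. *Chac1* stood at 9.89 and 6.67 CPM in the control and at 2.69 and 3.00 CPM in si*Wdr5* cells. None of these 3 genes overlapped between the groups. They fell by 1.43 (SE 0.28, adjusted p = 0.00876), 1.40 (SE 0.31, adjusted p = 0.0134) and 1.52 (SE 0.40, adjusted p = 0.0259) on the log2 scale. *Asns* fell from 133 and 121 to 79.9 and 83.4 CPM, by 0.64 (SE 0.14, adjusted p = 0.0115). *Atf4* fell from 231 and 208 to 154 and 163 CPM, by 0.47 (SE 0.15, adjusted p = 0.0485). Thus 5 members were lower and 0 higher, where 5.7% of the genes tested were lower and 16.1% higher, and 3 were lower by more than 1 on the log2 scale, against 1.5% of the genes tested. The median of the members was -0.54 and that of all genes tested 0.08. No member passed with either nt library or si*Wdr5* replicate 2 left out, and fewer did with si*Wdr5* replicate 1 left out. Fewer genes passed over all genes tested in these fits as well. The changes then lay between -1.10 and -1.75 for *Slc7a11*, -1.22 and -1.58 for *Trib3* and -1.23 and -1.80 for *Chac1*. Those of *Asns* lay between -0.57 and -0.71 and those of *Atf4* between -0.39 and -0.55.

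The serine and folate enzymes lay on the other side of the threshold in si*Wdr5* cells at day 6, *Mthfd2* and *Phgdh* narrowly so, and their changes were not tested against those of the 5 members that passed. Without overlap, 8 members lay below the control, among them *Psat1*, *Phgdh* and *Mthfd2*, where 27.4% of the genes tested lay below. *Shmt2* stood at 100.2 and 99.5 CPM in the control and at 102 and 95.5 CPM in si*Wdr5* cells, where *Psat1* stood at 221 and 232 CPM against 267 and 247 CPM in the control. *Mthfd2* (30.2 and 28.0 CPM against 44.2 and 41.5 CPM) and *Phgdh* (88.2 and 65.9 CPM against 108 and 109 CPM) had log2 fold changes of -0.56 and -0.51, larger in size than that of *Atf4*, with adjusted p of 0.0504 and 0.0522. Each passed in 6 of 13 alternatives. *Ddit3* was at 12.2 and 14.9 CPM in si*Wdr5* and at 11.3 and 7.95 CPM in control cells (adjusted p = 0.105). The summed fibroblast markers were 5453 to 7753 CPM in si*Wdr5* and 2192 to 2269 CPM in control cells at day 6, and the part of this shift was not tested.

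In si*Brca1* cells at day 6 the rises of day 3 were not seen. *Trib3* stood at 4.30 and 4.18 CPM against 8.05 and 6.28 CPM in the control, and *Slc7a11* at 249 and 196 CPM against 300 and 266 CPM. *Ddit3*, at 9.502 and 9.98 CPM, lay within the control range of 11.3 and 7.95 CPM. In limma 0 members passed, as did 0% of the genes tested (1123 of 14028 at an unadjusted p under 0.05). In si*Bard1* cells at day 6 also 0 members passed in limma, where 0.0784% of the genes tested did (1908 at an unadjusted p under 0.05). Of the members 8 lay below both control libraries in si*Brca1* and 4 in si*Bard1* cells without overlap, where 15.03% and 17.4% of the genes tested lay below. The level of *Brca1* and *Bard1* mRNA in these libraries overlapped that of the control, as given above.

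Tests of the change at day 6 against the change at day 3 singled out 5 members. For si*Wdr5*, *Psat1* and *Shmt2* differed between days, by 0.56 ± 0.15 (adjusted p = 0.0483) and 0.72 ± 0.17 (adjusted p = 0.0367), from changes of -0.75 and -0.74 at day 3 to -0.18 and -0.02 at day 6. That is 2 members higher, where 3.4% of the genes tested were higher. Neither passed with any of the 8 libraries left out, where fewer genes passed over all genes tested as well. Their differences then lay between 0.51 and 0.62 for *Psat1* and between 0.67 and 0.76 for *Shmt2*. The nt level of both genes itself fell between the days. For si*Brca1*, *Trib3* (-2.91 ± 0.77, adjusted p = 0.0157), *Chac1* (-2.13 ± 0.70, adjusted p = 0.0413) and *Slc7a11* (-1.68 ± 0.46, adjusted p = 0.0195) differed between days, where 10.3% of the genes tested were lower. No member passed with si*Brca1* day 3 replicate 2, nt day 3 replicate 2 or nt day 6 replicate 1 left out. Fewer members passed without si*Brca1* day 6 replicate 2. In these fits fewer genes passed over all genes tested too. For si*Bard1* 0 members passed in limma, where 0.0499% of the genes tested did (2694 at an unadjusted p under 0.05), and the closest was *Shmt2* at 0.75 ± 0.17 (adjusted p = 0.0615).

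Other genes of these pathways were followed in 6 lists that leave out the members. These lists were chosen with earlier results of these data known, so that their shares are a description and not independent support. Their counts at day 3 are read against all genes tested, of which 18.3% rose and 16.8% fell in si*Wdr5*, 25.4% rose and 21.8% fell in si*Brca1*, and 8.67% rose and 5.87% fell in si*Bard1* cells. Of 29 integrated stress response and ATF4 target genes tested at day 3, 15 rose and 4 fell in si*Brca1*, 4 rose and 9 fell in si*Wdr5*, and 1 rose and 6 fell in si*Bard1* cells. That is 51.7% higher and 13.8% lower in si*Brca1*, 13.8% and 31.0% in si*Wdr5* and 3.45% and 20.7% in si*Bard1* cells. Without si*Brca1* replicate 2 the first count was 8 higher and 8 lower. *Vldlr*, a lipoprotein receptor, stood at 11.5 and 12.7 CPM in the nt control and at 25.8 and 63.4 CPM in si*Brca1* cells (log2 fold change 1.75, adjusted p = 0.000234). It was also above both control libraries in si*Wdr5* (15.6 and 18.8 CPM) and si*Bard1* cells (23.6 and 22.8 CPM). *Gdf15*, a secreted stress cytokine, stood at 10.9 and 8.52 CPM in the control, 23.9 and 39.7 CPM in si*Brca1* and 17.7 and 19.6 CPM in si*Wdr5* cells (log2 fold changes 1.67 and 0.95, adjusted p = 6.21e-05 and 0.00539). Its level in si*Bard1* cells was 17.6 and 12.7 CPM. *Slc7a3*, a cationic amino acid transporter, and *Cth*, which makes cysteine from cystathionine, fell in all 3 knockdowns at day 3, by 0.81 to 1.28 on the log2 scale. *Cth* stood at 83.6 and 78.7 CPM in the control, 32.3 and 36.1 CPM in si*Wdr5*, 40.3 and 47.3 CPM in si*Brca1* and 46.3 CPM in both si*Bard1* libraries. At day 6, 2 of the 29 (6.9%) fell in si*Wdr5* cells, close to the 5.7% of all genes tested.

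Of 24 serine, glycine and folate genes tested at day 3, 10 fell and 1 rose in si*Wdr5*, 15 fell and 3 rose in si*Brca1*, and 6 fell and 0 rose in si*Bard1* cells in limma. The shares that fell were 41.7%, 62.5% and 25.0%. *Shmt1*, the cytosolic hydroxymethyltransferase, stood at 93.6 and 94.1 CPM in the nt control, 50.3 and 53.4 CPM in si*Wdr5*, 45.3 and 24.4 CPM in si*Brca1* and 59.0 and 58.1 CPM in si*Bard1* cells. It was below the control in all 6 knockdown libraries (adjusted p = 0.00475, 5.70e-05 and 0.0357). *Gldc*, of the glycine cleavage system, fell by 1.08 and 1.43 on the log2 scale in si*Wdr5* and si*Brca1* cells (adjusted p = 0.00556 and 0.000495). *Aldh1l2*, a mitochondrial formyltetrahydrofolate dehydrogenase, rose in si*Brca1* cells (log2 fold change 2.44, adjusted p = 0.00130), from 5.87 and 4.30 CPM to 11.7 and 63.4 CPM, again with replicate 2 far above replicate 1. At day 6, 2 of the 24 rose and 3 fell in si*Wdr5* cells, where 16.1% of all genes tested rose and 5.7% fell.

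Of 14 glutathione and NRF2 genes, to which *Slc7a11* is close in function, 13 (92.9%) rose and 1 fell in si*Brca1* cells at day 3. In si*Wdr5* cells 5 (35.7%) rose and 2 fell, and in si*Bard1* cells 2 (14.3%) rose and 0 fell in limma. *Hmox1* (heme oxygenase) stood at 100.3 and 100.2 CPM in the nt control, 305 and 538 CPM in si*Brca1*, 204 and 223 CPM in si*Wdr5* and 216 and 169 CPM in si*Bard1* cells. It rose in each (log2 fold changes 2.01, 1.09 and 0.93, adjusted p = 6.29e-06, 0.000921 and 0.00790). *Nqo1* stood at 228 and 267 CPM in si*Brca1* cells against 108 and 104 CPM, and *Srxn1* at 170.2 and 253 CPM against 83.3 and 83.1 CPM. The other knockdowns were above these controls too. *Nqo1* stood at 115 and 126 CPM in si*Wdr5* and 184 and 157 CPM in si*Bard1* cells. *Srxn1* stood at 103 and 119 CPM in si*Wdr5* and 119 and 109 CPM in si*Bard1* cells. Both si*Brca1* libraries were above the control for all 3 genes, and without replicate 2 of si*Brca1* the list still counted 11 higher and 0 lower. In the control itself 9 of the 14 (64.3%) rose and 1 fell from day 3 to day 6, against 19% and 27.1% of all genes tested. Of 18 endoplasmic reticulum chaperone and unfolded protein response genes 7 (38.9%) rose in si*Wdr5*, 5 (27.8%) rose and 1 fell in si*Brca1* and 1 (5.56%) rose in si*Bard1* cells at day 3, and 7 (38.9%) rose in si*Wdr5* cells at day 6. The shares in si*Brca1* and si*Bard1* cells were near those over all genes tested. Of 15 eIF2alpha kinase, phosphatase and eIF2B genes 2 rose and 9 (60%) fell in si*Brca1* cells, 1 rose and 2 (13.3%) fell in si*Wdr5* and 2 rose and 2 (13.3%) fell in si*Bard1* cells. Of 20 cytosolic aminoacyl-tRNA synthetases 2 rose and 6 (30%) fell in si*Brca1*, 6 (30%) fell in si*Wdr5* and 4 (20%) fell in si*Bard1* cells at day 3, and 12 (60%) fell and 2 rose in the control between days.

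**Figure D4:**
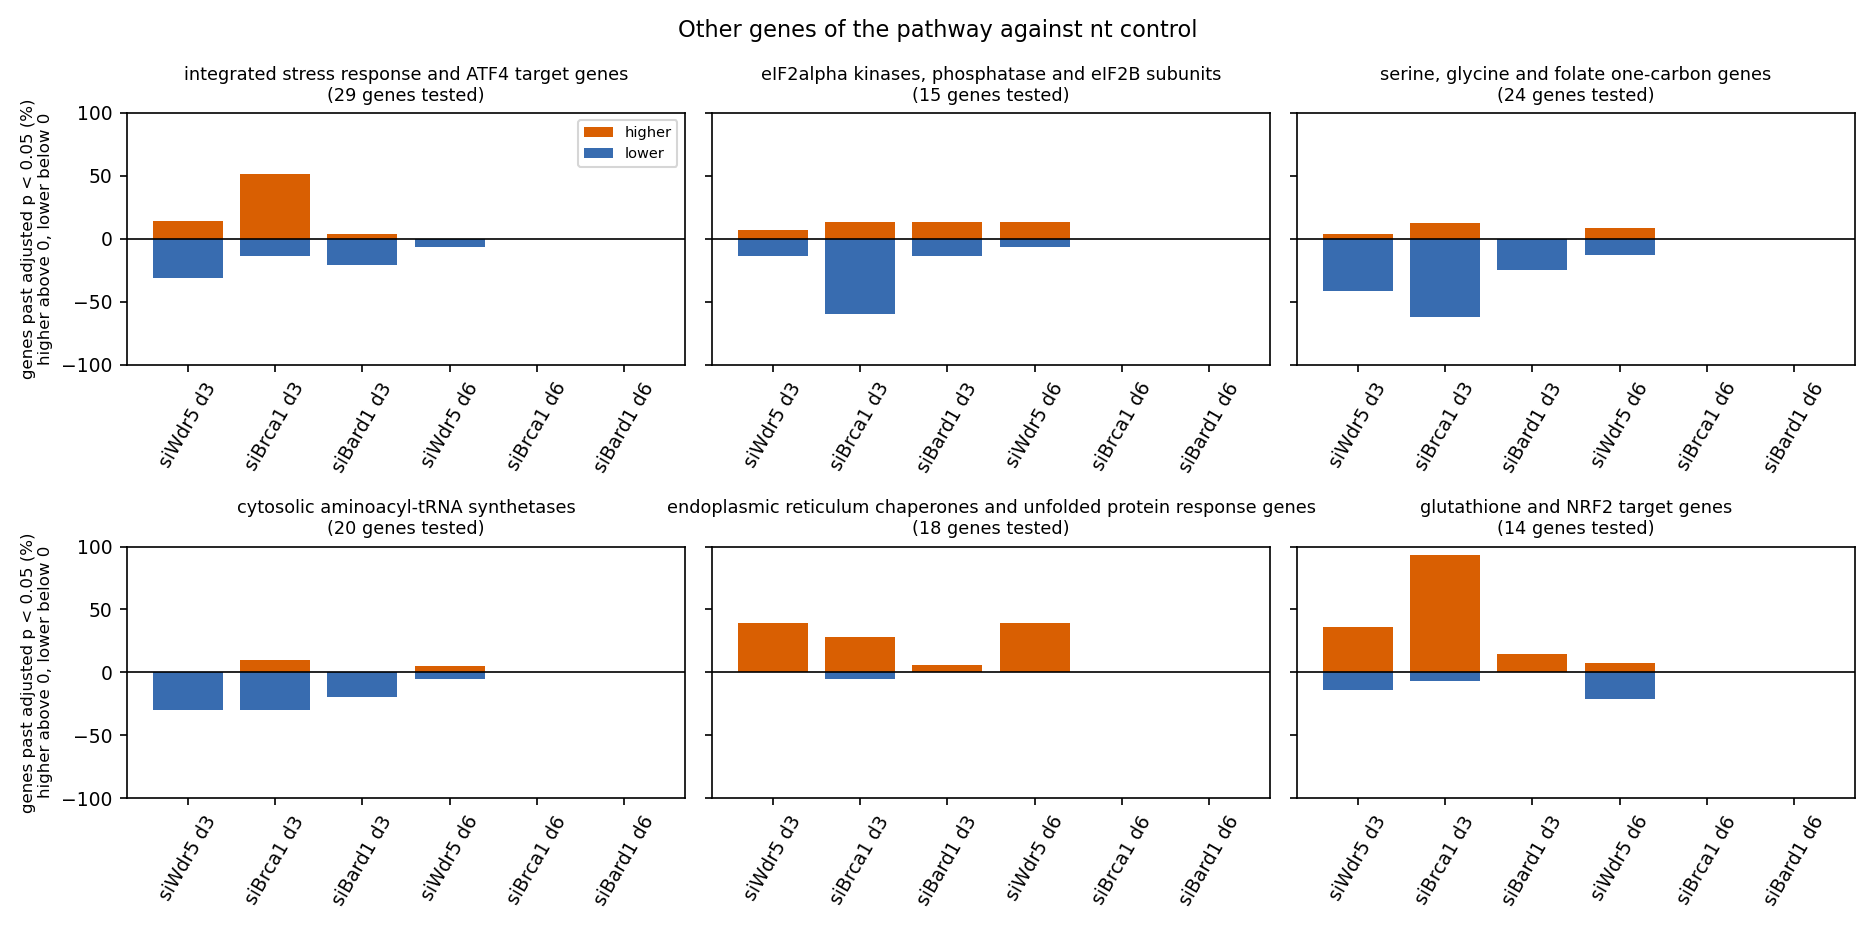
Share of the genes of each of the 6 lists that passed adjusted p < 0.05 in limma against the nt control (y axis, percent of genes tested, higher above 0 and lower below 0) in the 6 comparisons (x axis). The tallest bar above 0 is that of the glutathione and NRF2 list in si*Brca1* day 3 cells, with 13 of 14 genes, and the serine list has its deepest bar below 0 in the same cells, with 15 of 24 genes, while si*Brca1* and si*Bard1* cells at day 6 show none.

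Across the 16 libraries, after subtracting the mean of each day, most pairs of members were positively correlated, while *Ddit3* stood apart. The correlations describe these libraries, which share their controls, their groups and the common scaling, and carry no test. *Atf4* and *Asns* had a Pearson r of 0.94, *Trib3* and *Chac1* of 0.93 and *Phgdh* and *Shmt2* of 0.85. *Psat1* and *Slc7a11* had 0.23, and *Shmt2* and *Slc7a11* 0.04. Of the 45 pairs 40 were above 0. Without replicate 2 of si*Brca1* at day 3 (15 libraries) 36 pairs were above 0, and all 9 pairs with *Ddit3* were below 0, from -0.50 with *Slc7a11* to -0.76 with *Mthfd2*, although *Ddit3* and *Atf4* had 0.02 over all 16. Outside the members, the genes most like *Atf4* were *H1f0* (r = 0.93, Spearman rho 0.92), *Psph* (0.91 and 0.91) and *Cars* (0.91 and 0.91). Those most like *Asns* were *H1f0* (0.93 and 0.92), *Gpt2* (0.92 and 0.94) and *Rcor2* (0.90 and 0.94). Those most like *Psat1* were *Cenpo* (0.92 and 0.89), *Fn3krp* (0.91 and 0.92) and *Acaa2* (0.90 and 0.86). Without that si*Brca1* library r was between 0.85 and 0.95 for these 9 pairs.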

How the data were processed

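RNA was depleted of ribosomal RNA, sequenced paired-end, aligned by the authors to mm10 with STAR 2.5.2b and turned into log-CPM with edgeR 3.20.9. The read counter, annotation and strand setting are not given in the sources used here. The deposited values are log2 CPM, scaled between libraries and filtered by the authors. They returned whole reads for 100% of values (tolerance 0.01), from library sizes of 11169738 to 26832534, and 3 reads lie at 0.115 to 0.260 CPM.

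A gene was tested where its log2 CPM averaged 0 or more over the libraries, which held for 14028 genes, fitted with limma 3.58.1 (R 4.3.3), with 1 mean per group, 8 libraries per day and a trend on mean expression. Changes between days used all 16 libraries. P-values are two-sided and Benjamini-Hochberg adjusted over all genes tested, and a gene passed at adjusted p < 0.05. The script was tested on simulated data.

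The members and lists were chosen with earlier results of these data known. In each list up to 4 genes were named, those with the largest fold change among genes that passed with an absolute log2 fold change above 1 in a knockdown. A gene named by this rule is counted in its list but not reported here. For *Atf4*, *Asns* and *Psat1* the 3 genes of highest r were named. Genes overlapping the members came from GENCODE vM21 (mm10), where *Shmt2* shares 32 exonic bases (1.03%) with *Ndufa4l2* on the other strand. Promoters came from RefSeq. Alternatives changed the filter, prior, samples in the fit, variance trend, scaling, replicate block and test (limma-voom on recovered reads). They also left out each library of the compared groups in turn.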

Additional observations from a re-analysis of the deposited data

Results flagged for a closer look

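Changes that differed between day 3 and day 6 by a test of the difference itself (limma, all 16 libraries, adjusted over 14028 genes) were found for 5 members. In si*Wdr5* cells the change of *Psat1* was 0.56 higher at day 6 than at day 3 on the log2 scale (adjusted p = 0.0483), and that of *Shmt2* was 0.72 higher (adjusted p = 0.0367). In si*Brca1* cells the change of *Trib3* differed by -2.91 (adjusted p = 0.0157), that of *Chac1* by -2.13 (adjusted p = 0.0413) and that of *Slc7a11* by -1.68 (adjusted p = 0.0195). Without replicate 2 of si*Brca1* at day 3 these last 3 differences were -1.62, -1.14 and -1.02, and none passed.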

How the results depend on the processing

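Of the calls against the nt control, those of *Psat1* and *Shmt2* in si*Wdr5* and si*Brca1* cells, *Shmt2* in si*Bard1*, *Phgdh* and *Mthfd2* in si*Wdr5* and *Ddit3*, *Trib3* and *Slc7a11* in si*Brca1* cells at day 3 passed in all 13 alternatives. The counts of members that passed at day 3 ranged, with a library left out, at 4 for si*Wdr5* (6 reported), from 5 to 8 for si*Brca1* (6), from 1 to 4 for si*Bard1* (4), from 1 to 9 for si*Wdr5* against si*Brca1* (5) and from 0 to 8 for si*Brca1* against si*Bard1* (6). At day 6 they ranged from 0 to 3 for si*Wdr5* (5). For the difference between days they were 0 for si*Wdr5* (2) and ranged from 0 to 6 for si*Brca1* (3). With only the compared groups in the fit the counts were 10 for si*Wdr5* and 7 for si*Bard1* at day 3, 3 for si*Brca1* against si*Bard1*, 1 for si*Wdr5* against si*Bard1* (0 reported), 1 for the si*Bard1* difference between days (0) and 8 for the nt course (4). Without the variance trend they were 1 for si*Bard1* and 0 for si*Brca1* against si*Bard1* at day 3, 3 for si*Wdr5* at day 6, and 0 and 1 for the si*Wdr5* and si*Brca1* differences between days. With no filter on low values they were 2 for si*Bard1*, 1 for si*Brca1* against si*Bard1* and 1 for the si*Wdr5* difference. With quantile normalization they were 8 for si*Wdr5* at day 6, 1 for si*Wdr5* against si*Bard1* and 1 for the si*Wdr5* difference, which was 0 with libraries centred on their median gene. With a library left out, 1 remained in its group, and in most such fits fewer genes passed over all genes tested. The cause was not tested.

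Signs turned for changes that had not passed, given here as the range with a library left out. In si*Brca1* cells at day 3 *Mthfd2* ranged from -0.35 (without replicate 2) to 0.21 (without replicate 1), *Atf4* from -0.17 to 0.49 and *Asns* from -0.22 to 0.59 in the same way. At day 6 *Shmt2* in si*Wdr5* cells ranged from -0.0648 to 0.0254 over its own replicates, and *Ddit3* from -0.22 to 0.29 in si*Brca1* and from -0.21 to 0.30 in si*Bard1* cells over the nt replicates. In si*Bard1* cells, over its own replicates, *Atf4* ranged from -0.27 to 0.13, *Psat1* from -0.089 to 0.061, *Mthfd2* from -0.45 to 0.18 and *Slc7a11* from -0.74 to 0.16. *Ddit3* and *Shmt2* were there at -0.024 and -0.052 with centred libraries and *Shmt2* at -0.12 with quantile normalization. In the nt course *Ddit3* ranged from -0.12 to 0.40 and *Asns* from -0.059 to 0.077 over the day 6 replicates, and *Ddit3* was at -0.034 with quantile normalization.

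The labels do not say that a replicate number marks a shared experiment. The differences between replicates correlated between groups at -0.09 to 0.07 at day 3 and at -0.07 to 0.26 at day 6, where 3 of 6 pairs of groups were above 0.1, so that a pairing was not established at either day. With the replicate block in the fit the counts were 7 for si*Wdr5*, 6 for si*Brca1* and 4 for si*Bard1* at day 3, 7 for si*Wdr5* at day 6 and 1 for the si*Bard1* difference between days. *Phgdh* (adjusted p = 0.0254) and *Mthfd2* (adjusted p = 0.0418) then passed in si*Wdr5* cells at day 6, *Chac1* (adjusted p = 0.0275) in si*Wdr5* cells at day 3 and *Trib3* (adjusted p = 0.0478) in the nt course. With 2 libraries per group, *Trib3* and *Chac1* had the widest errors of the members, and *Trib3* had as few as 21 reads. At day 3 the si*Brca1* replicates differed by 2.57 for *Trib3* and 1.97 for *Chac1*. For *Trib3* the differences were -0.29 in nt, -0.50 in si*Bard1* and 0.32 in si*Wdr5* cells.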
